A study of Mus musculus with 24 samples.

Results

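Small nucleolar RNA genes were taken as all gene symbols in the deposited tables that start with Snora or Snord followed by a digit, which gave 98 of 25410 symbols. They comprised 72 box C/D and 26 box H/ACA genes, and each had 1 row per library, so no values had to be added up.

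The tables come from RNA sequencing of the duodenum, the first segment of the small intestine, of male Cyp27b1 null mice. These mice lack the enzyme that makes 1,25-dihydroxyvitamin D3 (1,25D), the hormone form of vitamin D, so all 4 groups share that deletion and all ate feed without vitamin D from weaning at 3 weeks until 8 weeks of age. The normal diet held 0.47% calcium and 0.3% phosphorus, and the rescue diet, meant to keep mineral supply up without the hormone, held 20% lactose, 2% calcium and 1.25% phosphorus. On each diet mice received vehicle or 1,25D at 2 ng per g body weight, and RNA was taken 6 h later. Each of the 4 groups (normal vehicle, normal 1,25D, rescue vehicle, rescue 1,25D) had 6 libraries. Total RNA depleted of ribosomal RNA was sequenced, without selection for poly(A) tails, which small nucleolar RNAs lack. The labels name no animal for a library. The p-values set differences between groups against the spread of libraries, which cannot be taken as the spread of animals.

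Small nucleolar RNAs guide chemical changes of ribosomal RNA in the nucleolus. Box C/D RNAs carry the methyltransferase fibrillarin to a ribose, and box H/ACA RNAs carry the pseudouridine synthase dyskerin to a uridine. A small set helps to cut the ribosomal precursor instead of modifying it. In mammals most are cut out of introns of host genes, many of which code for ribosomal proteins, and are trimmed to size by exonucleases, so a host and its guide are made together but decay separately. In a rapidly renewed tissue such as the intestinal lining they belong to the machinery that makes ribosomes.

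The first set of sequences shows RNAs with high values other than Snora74a, the highest, whose sequence is not shown, and the related copies that can share reads. They are the RNA-sense sequences of GENCODE M21 on GRCm38, written with T. Capitals mark TGATGA, an exact box C motif, within the first 30 bases and CTGA, box D, within the last 25 bases of a box C/D RNA, and ACA within the last 8 bases of a box H/ACA RNA, searched on the RNA's own strand.
Snord17: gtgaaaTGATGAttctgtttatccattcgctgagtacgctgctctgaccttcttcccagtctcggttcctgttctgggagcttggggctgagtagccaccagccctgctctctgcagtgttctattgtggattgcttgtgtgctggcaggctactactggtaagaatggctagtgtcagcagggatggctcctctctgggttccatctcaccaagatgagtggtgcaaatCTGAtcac
Snora23: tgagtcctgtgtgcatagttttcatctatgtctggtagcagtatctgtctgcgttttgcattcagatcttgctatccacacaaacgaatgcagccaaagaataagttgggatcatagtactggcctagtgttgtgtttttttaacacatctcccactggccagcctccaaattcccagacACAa
Snord15a: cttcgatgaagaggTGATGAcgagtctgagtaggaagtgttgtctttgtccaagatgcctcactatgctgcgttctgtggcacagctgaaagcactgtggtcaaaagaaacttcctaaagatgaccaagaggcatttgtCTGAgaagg
Snord15b: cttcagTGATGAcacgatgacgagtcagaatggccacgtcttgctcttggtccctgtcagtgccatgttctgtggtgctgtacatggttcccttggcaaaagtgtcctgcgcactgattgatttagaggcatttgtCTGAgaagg
Snord118: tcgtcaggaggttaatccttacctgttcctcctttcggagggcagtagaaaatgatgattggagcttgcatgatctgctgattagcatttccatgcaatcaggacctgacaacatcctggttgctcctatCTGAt
Snord22: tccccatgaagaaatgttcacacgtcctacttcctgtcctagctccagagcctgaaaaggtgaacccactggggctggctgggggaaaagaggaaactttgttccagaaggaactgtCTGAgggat
Snord14c: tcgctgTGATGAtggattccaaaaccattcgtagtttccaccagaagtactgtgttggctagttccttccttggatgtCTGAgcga
Snord14d: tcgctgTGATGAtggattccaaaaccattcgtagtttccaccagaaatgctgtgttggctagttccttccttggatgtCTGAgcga
Snord14e: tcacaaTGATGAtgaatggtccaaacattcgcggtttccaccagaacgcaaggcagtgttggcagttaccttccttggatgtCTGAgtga
Snora73a: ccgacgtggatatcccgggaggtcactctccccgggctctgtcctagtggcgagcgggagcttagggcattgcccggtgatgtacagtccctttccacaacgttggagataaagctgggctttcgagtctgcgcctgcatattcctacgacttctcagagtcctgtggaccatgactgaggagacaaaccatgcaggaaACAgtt
Snora73b: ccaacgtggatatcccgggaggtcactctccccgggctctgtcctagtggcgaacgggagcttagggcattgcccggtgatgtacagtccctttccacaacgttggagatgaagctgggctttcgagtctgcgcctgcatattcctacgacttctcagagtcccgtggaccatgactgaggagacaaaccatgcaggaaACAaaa
The second set shows box C/D RNAs that are widely used as reference RNAs in PCR assays of microRNAs, and that were listed at 0 in every library here.
Snord47: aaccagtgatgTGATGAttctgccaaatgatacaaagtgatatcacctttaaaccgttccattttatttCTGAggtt
Snord61: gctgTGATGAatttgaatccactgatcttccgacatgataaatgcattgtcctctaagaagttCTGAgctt
Snord65: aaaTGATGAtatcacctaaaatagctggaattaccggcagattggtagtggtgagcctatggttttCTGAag
Snord68: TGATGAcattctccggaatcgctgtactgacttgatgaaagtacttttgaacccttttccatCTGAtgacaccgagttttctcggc
Snord70: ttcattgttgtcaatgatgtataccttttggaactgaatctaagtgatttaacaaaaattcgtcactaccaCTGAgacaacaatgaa
Snord72: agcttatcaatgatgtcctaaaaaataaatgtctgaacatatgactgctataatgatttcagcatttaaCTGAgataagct
Snord95: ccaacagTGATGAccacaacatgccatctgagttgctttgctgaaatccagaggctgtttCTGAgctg
Snord96a: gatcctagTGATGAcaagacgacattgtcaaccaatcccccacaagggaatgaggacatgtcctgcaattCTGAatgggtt
TGATGA stood in its window in 47 of 70 box C/D genes with a sequence (67.1%), CTGA in 69 of 70 (98.6%), and ACA in 23 of 23 box H/ACA genes (100%). Snord22, Snord70 and Snord72 lack that exact box C word there and Snord118 has it outside the window, which says only that those letters do not stand in the window searched.

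Detection split the genes by class. Of the 98 genes, 51 were listed at 0 in all 24 libraries, 47 were above 0 in at least 1 library and 30 were above 0 in all 24. Among box C/D genes 48 of 72 were at 0 throughout, and among box H/ACA genes 3 of 26. A single library had between 33 and 43 of the genes above 0, with a median of 39. The filter used for testing, at least 0.5 RPKM (reads scaled to the length of the feature and to the mapped reads of the library) in at least 6 libraries, kept 43 genes, 21 box C/D and 22 box H/ACA. The 4 detected genes that it removed were Snora35, Snord88c, Snord23 and Snord116.

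The zeros followed the annotated length. RefSeq gives a length for 97 of the 98 genes. All 47 genes of 80 bases or less, the longest of them 78 bases, were listed at 0 in every library. Of the 50 longer genes, 46 were above 0 somewhere, the shortest of them Snord32a with 81 bases. The median length was 68 bases for box C/D and 125 bases for box H/ACA genes, and 46 of the 47 short genes were box C/D. The other short RNA symbols in the tables, microRNA hairpins and small nuclear RNAs among them, split at the same place: 182 of 188 with 80 bases or less were at 0 throughout, against 78 of 258 longer ones. The exceptions below the limit were Rnu7, the small nuclear RNA of histone mRNA processing, with 62 bases, and 5 microRNA hairpins of 78 or 80 bases.

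The zeros went with the length in the RefSeq annotation more closely than with the GENCODE length. Several RefSeq entries are shorter than the GENCODE gene of the same name, and 15 of 46 genes with 80 RefSeq bases or less have more than 80 bases in GENCODE. Snora20 has 61 bases in RefSeq and 128 in GENCODE, Snord43 48 and 108, Snord90 68 and 111, and Snord68, shown above, 48 and 86. All were listed at 0. In the opposite direction, Snord123 has 88 bases in RefSeq and 71 in GENCODE, and it was above 0 in all 24 libraries. It was the only one of 43 detected genes with a GENCODE length whose GENCODE length was 80 or less. These zeros are therefore listed values and were not read as missing expression; whether the limit came from library preparation, alignment or counting was not tested. Above the limit, Snord92 (83 bases), Snord7 (96 bases), Snora26 (121 bases) and Snora24 (130 bases) were also at 0 in all 24 libraries.

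**Figure D1:**
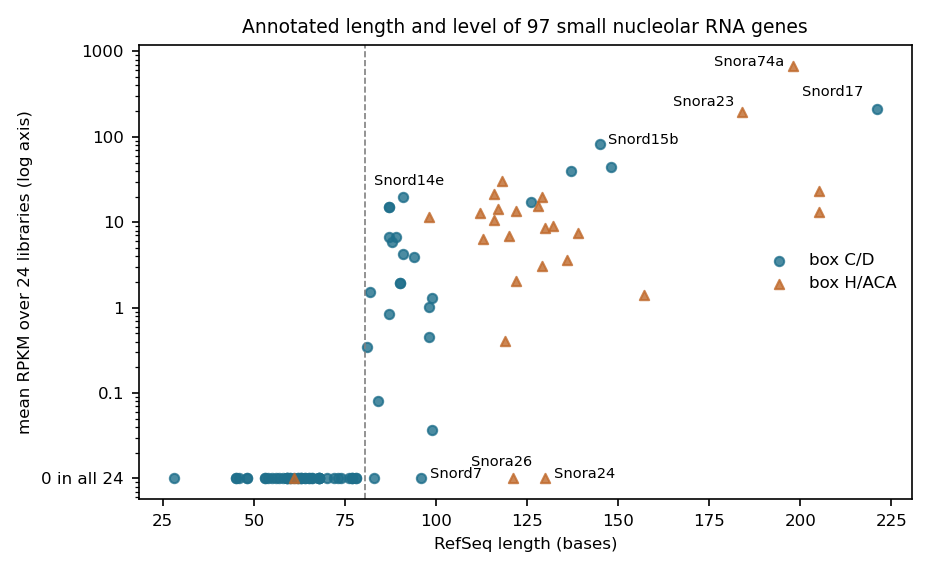
Mean RPKM over 24 libraries on a log axis against the RefSeq length in bases for 97 small nucleolar RNA genes, box C/D as circles and box H/ACA as triangles, with genes listed at 0 in all libraries on the bottom line. No gene left of the dashed line, drawn just above 80 bases, lies off the bottom line, while 46 of 50 to its right do.

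Several lists of interest held few or no genes above 0, and part of their names had no row. Of the box C/D RNAs used as PCR references for microRNAs, 8 of 11 had a row, and all 8 (Snord47, Snord61, Snord65, Snord68, Snord70, Snord72, Snord95 and Snord96a) were at 0 in all libraries. Their RefSeq lengths ran from 48 bases for Snord68 to 77 bases for Snord96a. Of 10 snoRNAs of the Gas5 gene, a host without a protein product, only Snord47 had a row, and it was at 0. Of the snoRNAs of the Prader-Willi region, an imprinted cluster used mainly in neurons, Snord64 was at 0 and Snord116, a row without a RefSeq length, reached 1.275 RPKM in 1 library and was at 0 in the other 23. Snord116l1 and Snord116l2, which GENCODE places in introns of Snhg14, the host RNA of that cluster, have 90 RefSeq bases, lie above the limit and were above 0 in 19 libraries. Of the 9 genes listed for processing of the ribosomal precursor none was at 0 throughout, and 7 were above 0 in all 24 libraries. All 9 lie above the length limit, with 87 to 205 RefSeq bases. Of all 50 genes above it, 46 were above 0 somewhere.

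Read numbers could be recovered for these genes. RPKM times length moves in steps of what 1 read is worth, and these steps gave 14200000 to 39300000 reads per library with a median of 24900000. With these totals 560 of 595 values of the genes with low counts came out within 0.06 of a whole read (94.1%). Each total was chosen so that at least 85% of the low values of short RNAs, these genes among them, did so. The share is therefore no separate check of the totals. Most of the genes rested on few reads: 6 had a median of 100 or more reads per library, 23 had 10 to 99, and 17 had fewer than 10. The 3 genes at the top had medians of 2972 (Snora74a), 1041.5 (Snord17) and 824.5 (Snora23) reads. Snord123 was the main exception, with 3 of 24 values whole, so its length in the authors' annotation may differ from the RefSeq one and its reads are approximate; for Snord14c and Snord14d 11 of 18 values were whole.

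Levels spanned several orders of magnitude. RPKM is scaled to length, so levels are compared between genes on that scale. Scaling cannot correct for short RNAs that are recovered less well, and the part of length in the order of genes was not tested. Snora74a, Snord17 and Snora23, the 3 highest, have 198, 221 and 184 RefSeq bases, beside a median of 82 for all genes with a length. Snora73a and Snora73b, with 205 bases each, were at 13.4 and 23.0 RPKM. Snora74a, the H/ACA RNA also known as U19, was highest at 674 ± 208 RPKM (SD, n = 24), with a lowest value of 297.9, a median of 697.5 and a highest value of 1057 RPKM. It exceeded the next gene, Snord17, in each of the 24 libraries, by a median ratio of 3.29. Snord17, a box C/D RNA from an intron of the sorting nexin gene Snx5, was at 213 ± 55.3 RPKM, and Snora23, from the importin gene Ipo7, at 195 ± 68.4 RPKM (SD, n = 24). The order of these neighbours was not fixed, since Snord17 was the higher in 16 libraries and Snora23 in 8. Together the 3 genes held 63.8% to 72.7% of the summed RPKM of all 98, with a median of 67.8%, and the 12 highest genes held 82.4% to 89.9%.

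Below them came Snord15b and Snord15a, box C/D guides from introns of the ribosomal protein gene Rps3, at 82.7 ± 39.7 and 44.8 ± 17.4 RPKM (SD, n = 24). Snord15b was the higher in 24 of 24 libraries, by a median ratio of 1.89, although both lie in 1 host transcript. Their sequences are identical at 107 of 162 aligned positions (66.0%), so reads of the pair can mostly be told apart. Snord118, the U8 RNA needed to mature the RNAs of the large ribosomal subunit and transcribed from a gene of its own, was at 39.8 ± 15.8 RPKM, with Snord15a above it in 17 libraries and below it in 7. The next were Snora65 (30.2 RPKM), Snora73b (23.0), Snora15 (21.3), Snora7a (20.0), Snord14e (19.8) and Snord22 (17.3 RPKM), all means over 24 libraries. The remaining 35 detected genes had means from 15.5 RPKM for Snora21 down to 0.0365 RPKM for Snord23.

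The genes listed for processing of the precursor lay in the upper and lower parts of this range. Snord118 led them. Snora73a and Snora73b, the U17 RNAs needed for the RNA of the small subunit, were at 13.4 ± 5.0 and 23.0 ± 7.98 RPKM (SD, n = 24), and Snora73b was the higher in 24 of 24 libraries, by a median ratio of 1.85. Both come from introns of Snhg3, are identical at 198 of 205 positions (96.6%) and can share reads, so their split is uncertain. Of the U14 RNAs, which act in making the small subunit RNA and guide a methylation, Snord14e was at 19.8 ± 9.01 RPKM (SD, n = 24). Snord14c and Snord14d were listed with the same value in every library, at 15.2 ± 5.41 RPKM, and their sequences match at 84 of 86 positions (97.7%). All 3 lie in introns of the chaperone gene Hspa8, whereas Snord14a, from Rps13, was above 0 in only 11 libraries and never above 3.517 RPKM. Snord22, the U22 RNA of the Snhg1 host, was at 17.3 ± 4.97 RPKM (SD, n = 24). Snord13, the U13 RNA, is in the list, but a part of it in cutting is not claimed here. It was above 0 in 12 libraries and reached at most 4.294 RPKM.

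Snord14c and Snord14d were not the only copies listed with the same values. Whether such copies shared reads was not tested. Snord116l1 and Snord116l2 had equal values in all 24 libraries and are identical at 94 of 94 positions, so they count as 1 measurement, as do Snord14c and Snord14d; the 43 tested genes thus hold 41 measurements. They were above 0 in 19 libraries, with a median of 1.229 and a highest value of 6.294 RPKM. Among the snoRNAs of Rpl13a, which have been linked to lipid and oxidative stress, Snord35a had a median of 6.285 RPKM, Snord33 one of 1.0685 RPKM, Snord32a was above 0 in 6 libraries only, and Snord34, with 66 RefSeq bases, was at 0. Snord35a was above Snord33 in 21 of 24 libraries.

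On the RPKM scale a guide's level did not have to resemble that of its host. Guides are short, and the part of their length in this comparison was not tested. For 36 pairs of a detected gene and a host found in the tables, with 30 different hosts, 33 of the guides lie in an intron and 3 in an exon of the GENCODE host, and 17 pairs have a ribosomal protein gene as host. The guide was below its host in RPKM in 29 pairs and above it in 7. Those 7 were Snord17 (213 RPKM, Snx5 29.1), Snora23 (195, Ipo7 57.5), Snora65 (30.2, Rpl12 24.1), Snora73b and Snora73a (23.0 and 13.4, Snhg3 2.85), Snord22 (17.3, Snhg1 0.840) and Snora78 (1.42, with Snhg9 listed at 0). At the other end, Hspa8 was at 1155 RPKM against 19.8 RPKM for Snord14e, and Rpl4 at 492 RPKM against 4.25 RPKM for Snord16a. Among the Snhg hosts of these pairs, which lack a protein product, Snhg3, Snhg1 and Snhg9 lay below their guides, whereas Snhg12, at 9.75 RPKM, lay above Snora16a, at 3.66 RPKM.

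The libraries differed from each other within every group. The summed RPKM of the 98 genes ran from 924 to 2437, or 0.166% to 0.396% of all RPKM. In normal vehicle the lowest, median and highest sums were 1009, 1374 and 2233 RPKM, and in normal 1,25D they were 1125, 1495 and 1919 RPKM. In rescue vehicle they were 986, 1611 and 2355 RPKM, and in rescue 1,25D 924, 1674 and 2437 RPKM. The 4 groups overlapped over nearly their whole range. The 3 lowest sums belonged to rescue 1,25D replicate 1, rescue vehicle replicate 2 and normal vehicle replicate 2, and the 3 highest to rescue 1,25D replicate 5, rescue vehicle replicate 5 and normal vehicle replicate 5, so both ends held libraries of 3 groups. Replicate 5 had the highest sum in normal 1,25D as well, and so in 4 of 4 groups, and replicate 2 had the lowest sum in 3 of 4. The labels do not say what libraries with the same number share. In bulk tissue, fewer cells of a type and less RNA per cell cannot be told apart.

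The same libraries were extreme for many genes at once. Of the 12 genes with the highest mean, 10 were among their 5 lowest values in rescue 1,25D replicate 1 and 10 in normal vehicle replicate 2, and 10 were among their 5 highest values in rescue vehicle replicate 5 and 10 in rescue 1,25D replicate 5. Rmrp, the RNA of the nucleolar endonuclease MRP, is no member of the family and had a median of 3045 RPKM. It was at 1687, 1795 and 2083 RPKM in the 3 libraries with the lowest sums, in the order given above. In the 3 with the highest sums it was at 3741, 5833 and 4762 RPKM. Other libraries also lay above 3741 RPKM, among them normal vehicle replicate 4 (4605 RPKM) and normal 1,25D replicates 5 and 3 (4297 and 4204 RPKM). Rn7sk, an abundant RNA of the nucleoplasm, did not follow throughout. It was at 53342, 75332 and 60344 RPKM in the low libraries and at 75513, 108199 and 72662 RPKM in the high ones. The summed RPKM of 14 enterocyte marker genes, all detected, was 2925, 10214 and 1834 in the low libraries and 1698, 4796 and 3867 in the high ones. The part of tissue composition in this spread was not tested.

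**Figure D2:**
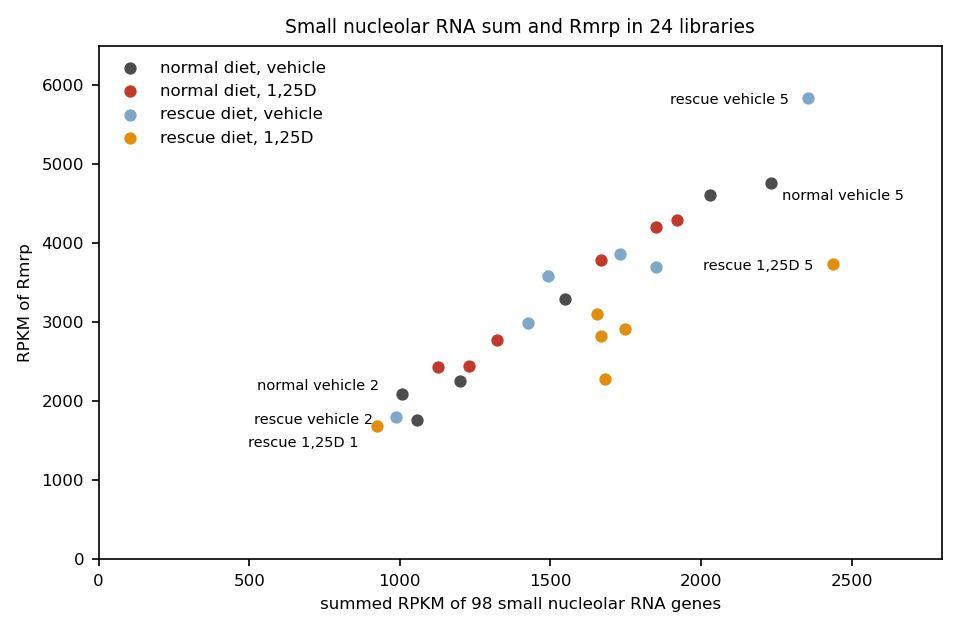
RPKM of Rmrp against the summed RPKM of 98 small nucleolar RNA genes, 1 point per library, coloured by group. The sums run from 924 to 2437 RPKM, each group spreads over most of that range, and the labelled libraries at both ends come from 3 groups.

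The spread between libraries was set beside counting error. For 46 genes with a length, the variance within groups was divided by the variance expected from the number of reads alone. The ratio was above 2 for 42 genes, between 1 and 2 for 2 and below 1 for 2, with a median of 5.54. It was highest for Snora74a, at 351, where counting error was 1.79% and the spread within groups 32.6% of the mean. For Snord17 these were 2.97% and 26.4%, and for Snord22 13.7% and 28.8%. Reads without molecular identifiers are not independent molecules, so the counting error is a lower limit. The lowest ratio, 0.827 for Snord123, rests on approximate reads.

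**Figure D3:**
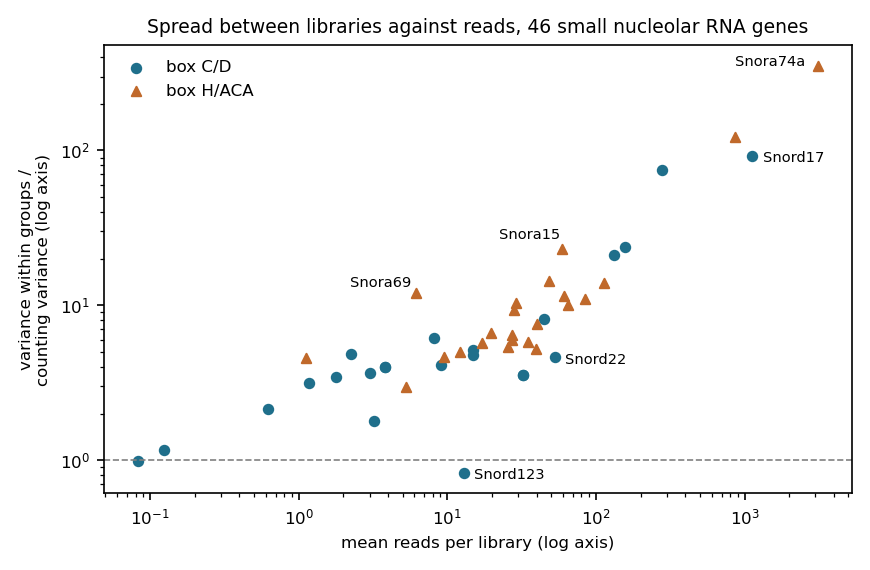
Ratio of the variance within groups to the counting variance against mean reads per library, both on log axes, for 46 small nucleolar RNA genes. The dashed line marks a ratio of 1, and 42 genes lie above 2, with Snora74a highest at 351.

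The question put to the groups was whether 1,25D or the rescue diet changed these RNAs. The reference response of the tissue was present: Cyp24a1, the enzyme that degrades 1,25D, ranged from 0.016 to 4.027 RPKM in the 12 vehicle libraries and from 92.1 to 1036 RPKM in the 12 libraries after 1,25D. Its lowest value after 1,25D, 92.1 RPKM, was that of rescue 1,25D replicate 5, which had the highest sum of small nucleolar RNA genes. Tests were made with limma on log2(RPKM + 0.5) across all 20006 genes that passed the filter, in 1 fit of 24 libraries, with Benjamini-Hochberg adjustment over all of them and a threshold of 0.05. Fold changes are on that scale and come out too small for genes with low values. A list is described by its counts and its median beside those of all genes.

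With 1,25D on the normal diet none of the 43 genes was called by limma, where 1.84% of all genes tested were called. An unadjusted p under 0.05 was reached by 1 gene, against 12% of all genes, and 0 genes had groups that did not overlap, against 2.22%. The median log2 fold change was 0.20, with 31 of 43 above 0, beside 0.05 and 11772 of 20006 for all genes. After quantile normalization the medians were 0.15 and -0.02, with 29 of the 43 above 0. Markers of other RNA sources differed between the same libraries. The summed RPKM of the 14 enterocyte genes ran from 1834 to 4696 under vehicle and from 5841 to 10557 after 1,25D, without overlap, and 5 of 14 were called higher by limma (median log2 1.10). The 21 exocrine pancreas genes ran from 1452 to 41959 RPKM under vehicle and from 25.2 to 10522 RPKM after 1,25D, with 0 called and 20 lower at an unadjusted p under 0.05. Rn18s, the ribosomal RNA that depletion left, had means of 999 and 437 RPKM and was not called (log2 -1.43, limma adjusted p = 0.283). The part of these differences in the values of the small nucleolar RNA genes was not tested. The abundant genes moved little against their spread. Snora74a was at 297.9, 536.5 and 953 RPKM (lowest, median and highest) under vehicle and at 439, 681 and 880 RPKM after 1,25D. All 6 treated values lay inside the range of the vehicle values. Its log2 fold change was 0.26 (95% interval -0.31 to 0.83). Snord17 was at 142, 241 and 295 RPKM under vehicle and at 148, 204 and 211 RPKM after 1,25D, again inside the vehicle range, with a log2 fold change of -0.20 (-0.63 to 0.24).

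The gene with the smallest p in this comparison was Snord35a, a box C/D guide of Rpl13a. It was at 0.613, 5.32 and 7.14 RPKM under vehicle and at 6.99, 9.26 and 22.1 RPKM after 1,25D. The groups overlapped by 1 library on each side, normal vehicle replicate 6 and normal 1,25D replicate 4, and 1 treated library, replicate 3, stood far above the rest. The log2 fold change was 1.23 (SE 0.48, limma adjusted p = 0.246), which did not pass. On the rescue diet Snord35a was at 1.51, 5.12 and 12.9 RPKM under vehicle and at 2.11, 5.24 and 10.5 RPKM after 1,25D, with wide overlap. Its median of 13 reads per library limits what could be seen. Of the other Rpl13a guides, Snord33 had a log2 fold change of 1.06 on the normal diet, with low values in every group, and Snord32a was listed at 0 in all 6 vehicle libraries there, so no fold is given.

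On the rescue diet 1,25D likewise gave no call by limma among the 43 genes, beside 0.145% of all genes. An unadjusted p under 0.05 was reached by 1 gene against 4.83% of all, and 0 genes had groups without overlap against 0.365%. The median was -0.03, with 20 of 43 above 0, beside 0.06 and 12175 of 20006 for all genes. Snora74a was at 429, 678 and 935 RPKM under vehicle and at 397, 766 and 1057 RPKM after 1,25D (log2 0.08, 95% interval -0.49 to 0.65). Snora23 was at 77.4, 198 and 314 RPKM under vehicle and at 69.7, 186 and 301 RPKM after 1,25D (log2 -0.03, -0.73 to 0.68). For both the groups covered almost the same range. The smallest p belonged to Snord123, a box C/D RNA without a known target, which was at 5.32, 7.65 and 8.21 RPKM under vehicle and at 4.28, 4.77 and 8.09 RPKM after 1,25D. Of the treated libraries, 5 lay below all vehicle libraries and replicate 5 lay among the highest of them. The log2 fold change was -0.41 (SE 0.18, limma adjusted p = 0.878).

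**Figure D4:**
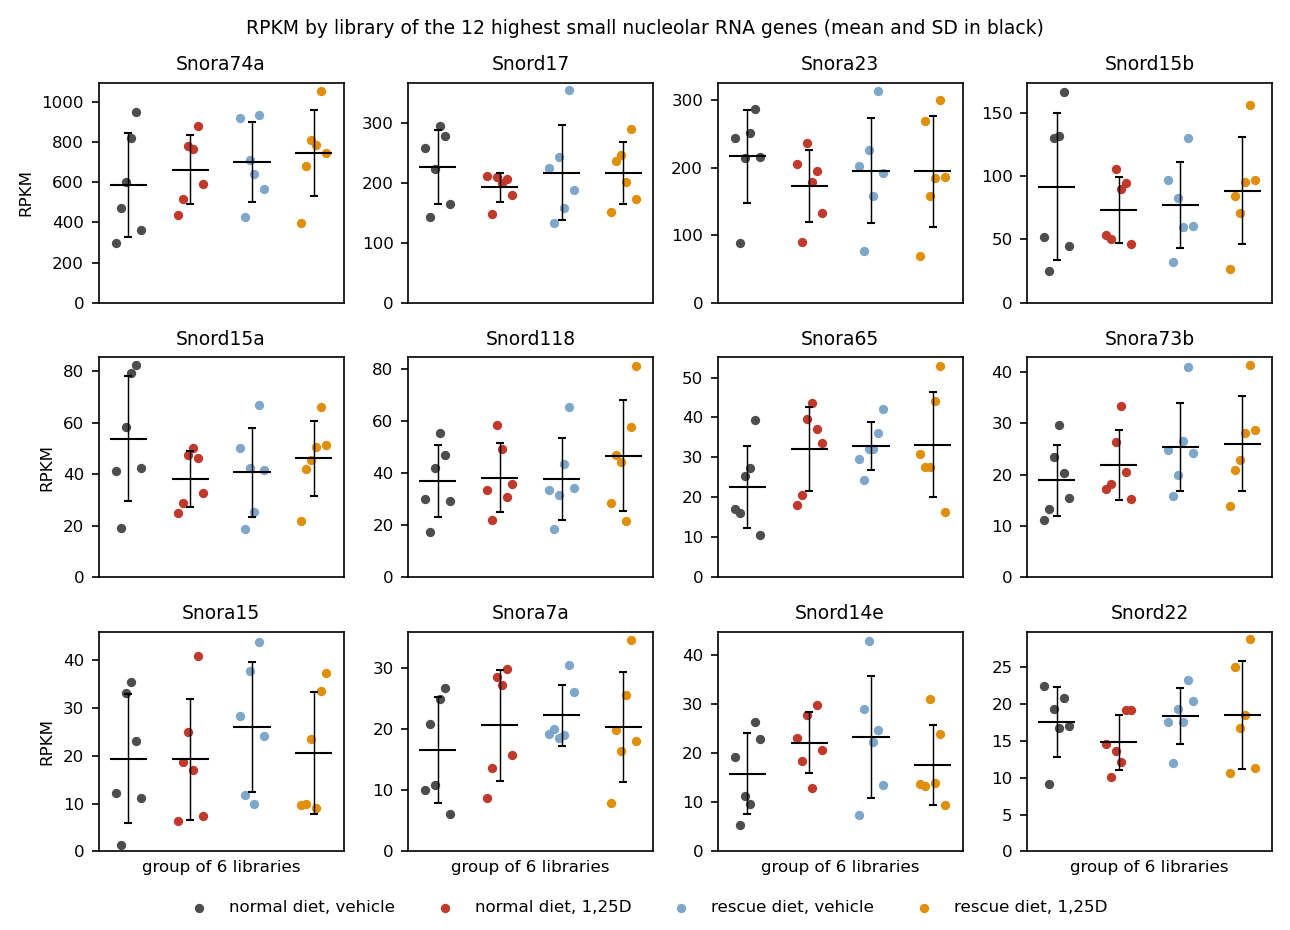
RPKM in each of the 6 libraries of a group for the 12 small nucleolar RNA genes with the highest mean, with group means and SD in black, each panel on its own axis from 0. The groups overlap in every panel, and Snora74a reaches from 297.9 to 1057 RPKM.

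Over both diets limma called 0 of 43 genes for 1,25D, beside 1.28% of all genes, and 3 had an unadjusted p under 0.05, beside 9.78% of all. Snord123 again had the smallest p, with a log2 fold change of -0.36 (SE 0.13, limma adjusted p = 0.237). On the normal diet it was at 4.28, 6.22 and 9.46 RPKM under vehicle and at 4.18, 4.62 and 6.56 RPKM after 1,25D, so here too the treated libraries lay at the lower end with overlap. With limma's library weights, which give noisy libraries less influence, it was called (log2 -0.43, limma adjusted p = 0.0385), as 1 of 470 genes. The call rests on that weighting. The others under an unadjusted p of 0.05 were Snord32a and Snord89 (log2 1.09). Snord32a met the filter with 6 libraries, 5 of them after 1,25D and 1 under vehicle, so it was tested only because of the treated libraries and nothing is read from its p. Snord89 was at 0, 1.85 and 10.9 RPKM in normal vehicle and at 1.18, 4.21 and 8.83 RPKM in normal 1,25D.

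Between diets under vehicle 0 of 43 genes were called by limma, as for all genes (0%), and 3 genes had an unadjusted p under 0.05, beside 7.18% of all. Among these 3, Snord67 was listed at 0 in every normal vehicle library. It met the filter only through libraries of the other groups, so nothing is read from its p. The groups of 0 genes failed to overlap, against 0.225% of all genes. The median log2 fold change, rescue minus normal, was 0.33 with 32 of 43 above 0, beside 0.10 and 13787 of 20006 for all genes. Scaling moved both medians: after quantile normalization they were 0.23 and 0.00, with 29 of the 43 above 0. The smallest p was that of Snora43, an H/ACA RNA, at 0.876, 4.77 and 12.1 RPKM in normal vehicle and at 6.78, 8.42 and 13.0 RPKM in rescue vehicle. The 2 groups overlapped through 3 normal vehicle libraries, replicates 2, 4 and 5, that lay at or above the lowest rescue value, while the other 3 lay between 0.876 and 2.74 RPKM. The log2 fold change was 1.07 (SE 0.40, limma adjusted p = 0.618). Snora65, from Rpl12, was at 10.6, 21.2 and 39.3 RPKM in normal vehicle and at 24.4, 32.2 and 42.2 RPKM in rescue vehicle (log2 0.63, SE 0.28, limma adjusted p = 0.678).

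Other RNA was also set side by side in these 2 groups, between which limma called 0 of all genes. The summed RPKM of 21 exocrine pancreas genes, all detected, ran from 1452 to 41959 in normal vehicle and from 38.1 to 7036 in rescue vehicle. In rescue 1,25D it ran from 27.8 to 15995 RPKM. Rn18s ran from 315 to 1732 RPKM in normal vehicle and from 172 to 566 RPKM in rescue vehicle (log2 -1.49, SE 0.59, limma adjusted p = 0.636). The enterocyte sums overlapped, from 1834 to 4696 and from 2106 to 10214 RPKM. The part of this material in the values of the small nucleolar RNA genes was not tested.

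After 1,25D the diets gave 0 called genes of 43 by limma, beside 0.01% of all genes, and 4 genes, which are 3 measurements, with an unadjusted p under 0.05, beside 8.38% of all. The groups overlapped for all 43, while 0.815% of all genes had groups that did not. The median was 0.08, with 29 of 43 above 0, beside 0.12 and 14145 of 20006 for all genes. The median of the 43 turned to -0.02 after quantile normalization and -0.01 after median-of-ratios scaling. Snord116l1 and its copy Snord116l2 had the smallest p. They were at 0, 0.206 and 3.05 RPKM in normal 1,25D, above 0 in 3 of 6 libraries, and at 0.399, 2.81 and 6.29 RPKM in rescue 1,25D, above 0 in all 6. The groups overlapped, and no library of either group held more than 11 reads. The log2 fold change was 1.68 (SE 0.63, limma adjusted p = 0.482). Snora43 was at 2.84, 4.76 and 9.38 RPKM in normal 1,25D and at 6.21, 9.92 and 12.4 RPKM in rescue 1,25D (log2 0.88, SE 0.40, limma adjusted p = 0.554). Snord35a went the other way, with a mean of 10.8 RPKM in normal 1,25D and 5.75 RPKM in rescue 1,25D (log2 -1.02, SE 0.48, limma adjusted p = 0.575). The enterocyte sums were 5841 to 10557 RPKM in normal 1,25D and 1698 to 7510 RPKM in rescue 1,25D, and their part was not tested.

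Over both injections no gene of the 43 passed between diets with limma, and none of all genes did (0%), while 2 genes had an unadjusted p under 0.05, beside 9.5% of all. Snora43 had the smallest p of any small nucleolar RNA gene in any comparison, with a mean log2 fold change of 0.98 (SE 0.28, limma adjusted p = 0.317), and its rescue libraries ran from 6.21 to 13.0 RPKM against 0.876 to 12.1 RPKM on the normal diet. Across the alternatives its log2 fold change stayed between 0.53 and 1.13, with adjusted p from 0.128 to 0.55. The other was Snord16a, a box C/D RNA of Rpl4 (log2 1.03, SE 0.46, limma adjusted p = 0.487). The median of the 43 was 0.14 beside 0.10 for all genes. Above 0 lay 33 of 43, beside a similar share of all genes, 15343 of 20006. With quantile normalization the medians were 0.06 and 0.00, and 25 of the 43 lay above 0.

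The effect of 1,25D was also compared between diets. The interaction was called for 0 of 43 genes by limma, beside 0.005% of all, and reached an unadjusted p under 0.05 for 3 genes, which are 2 measurements, beside 6.85% of all. The median was -0.21, with 12 of 43 above 0, beside 0.01 and 10341 of 20006 for all genes. Snord116l1 had a difference of 1.95 (SE 0.89, limma adjusted p = 0.671) and Snord33 one of -1.88 (SE 0.91, limma adjusted p = 0.725), both on the log2 scale and both from genes that were at 0 in several libraries. The interaction and the simple comparisons share libraries, so their values are not independent of each other.

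The intervals show what these libraries could resolve on the log2(RPKM + 0.5) scale. That scale draws values near 0 together, so a narrow interval of a gene near 0 does not exclude a 2-fold change of its level. Snord32a, above 0 in 6 libraries only, counted as within 2-fold for diet over both injections (log2 -0.55 to 0.72). For 1,25D on the normal diet the 95% interval lay wholly within a 2-fold change in either direction for 13 of 43 genes, and on the rescue diet for 19. For diet it did so for 14 genes under vehicle and 22 after 1,25D. With both strata averaged the numbers were 31 for 1,25D and 28 for diet, and for the interaction 6. For the other genes, 30 on the normal diet and 24 on the rescue diet, a 2-fold change in at least 1 direction lay inside the interval. Among the abundant genes, Snord17 had an interval of 0.65 to 1.18 times the vehicle level on the normal diet and of 0.76 to 1.39 times on the rescue diet, and Snora74a one of 0.81 to 1.77 and of 0.71 to 1.57 times.

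**Figure D5:**
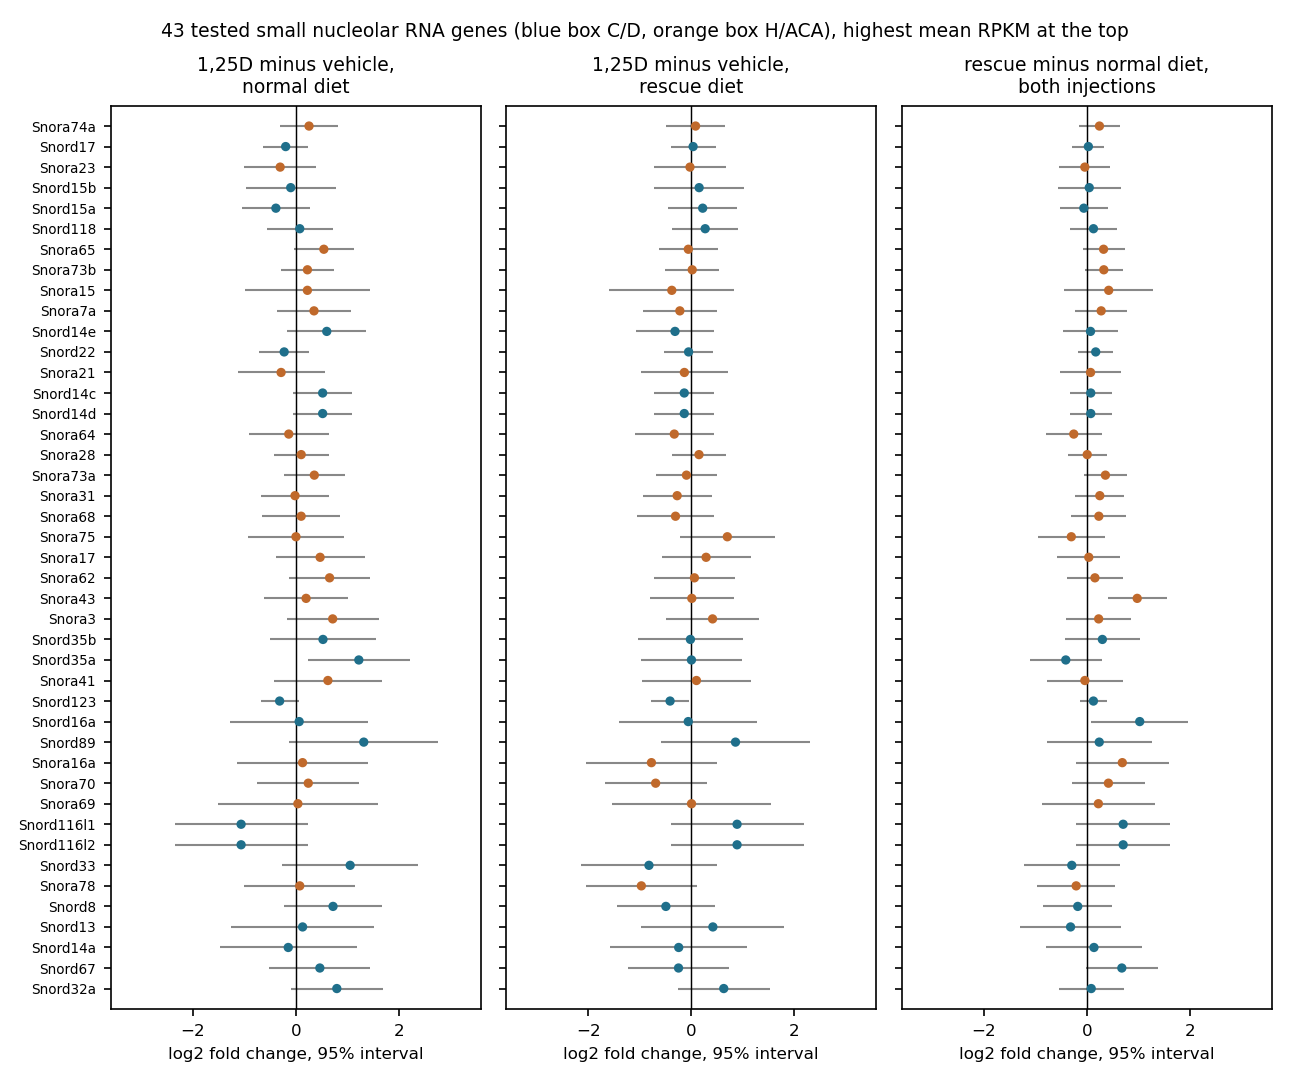
Log2 fold change with 95% interval for 43 tested small nucleolar RNA genes in 3 comparisons, ordered by mean RPKM. The intervals are mostly wider for genes with few reads, but Snord123 has the narrowest and Snora69, not the lowest gene, the widest. Snord35a on the normal diet, Snord123 on the rescue diet and Snora43 and Snord16a between diets lie off 0. None passed after adjustment over all genes.

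The genes of the same pathway were examined by lists. For the proteins bound to box C/D RNAs, 5 of 6 names had a row, and 0 of 5 were called by limma in any comparison, while all 5 had positive log2 fold changes for 1,25D on each diet and, as deposited, for the rescue diet under each injection, where quantile and median-of-ratios scaling left 4 of 5 positive. Averaged over diets, the median for 1,25D was 0.31. Nop58, a scaffold protein of the particle, had a vehicle mean of 23.1 and a 1,25D mean of 30.2 RPKM on the normal diet, and means of 28.1 and 33.6 RPKM on the other diet (log2 0.31, SE 0.13, limma adjusted p = 0.394). The methyltransferase Fbl had means of 18.2 and 19.7 RPKM on the normal diet and 23.8 and 25.5 RPKM on the rescue diet (diet log2 0.40, SE 0.15, limma adjusted p = 0.387). All 4 box H/ACA proteins were likewise above 0 in those comparisons, except that 3 of 4 were so for diet under vehicle after quantile normalization, and none was called. For the pseudouridine synthase Dkc1 the 1,25D change was 0.32 (SE 0.14, limma adjusted p = 0.448), and for Nhp2 the diet change was 0.46 (SE 0.17, limma adjusted p = 0.376). The medians of all genes were 0.07 for 1,25D over both diets and 0.10 for diet over both injections. Of all 20006 genes, 13167 and 15343 lay above 0 in the same comparisons.

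None of the 14 assembly factors and none of the 19 genes for exosome subunits and trimming was called by limma in any of the 7 comparisons. The smallest adjusted p was that of Lsm4, a subunit of the Lsm ring that binds small RNAs, for 1,25D on the normal diet, where the vehicle mean was 19.3 RPKM and the 1,25D mean 12.3 RPKM (log2 -0.61, SE 0.16, limma adjusted p = 0.0527). Of the hosts of the detected genes 29 passed the filter, none was called, and their medians were -0.07 and -0.09 for 1,25D on the normal and rescue diets, where those of the 43 guides were 0.20 and -0.03; between guides and hosts this difference was not tested. Of 16 other structured short RNAs tested, among them Rmrp, Rpph1 and Rn7sk, none was called either. For 1,25D an unadjusted p under 0.05 was reached by 1, lower, on the normal diet and by 1, higher, on the rescue diet. The shares of all genes were 12% and 4.83%. For diet it was reached by 1, lower, under vehicle and by 1, higher, after 1,25D, beside 7.18% and 8.38% of all genes. In the interaction 2 were higher, beside 6.85%.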

How the data were processed

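Per the labels' protocols, RNA from mouse duodenum was treated with DNase, depleted of ribosomal RNA (RiboMinus) and made into strand-specific libraries (ScriptSeq). The submitters' processing notes name TopHat and mm9; versions, counting program and gene models: not given in the sources used here. Each library has 1 table of RPKM values, made by the authors and deposited without counts, with 30795 entries for 25410 symbols. These values were used as deposited.

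The 98 members, the gene lists and the tests were chosen with earlier results of these data known. The genes named are the 12 with the highest mean, the 4 with the smallest p in each comparison, and the listed genes and hosts. Of these, Snora75, Snora3 and Snord8, each among the 4 with the smallest p in 1 comparison, are named only here, without values. A few others are named for their length, place or zeros and were chosen after their values were seen. RPKM of at least 0.5 in at least 6 of 24 libraries was required for testing, which 20006 genes met. Tests used limma 3.58.1 (R 4.3.3) with a trended prior on log2(RPKM + 0.5), a pseudocount of 0.5, 1 mean per group and 7 two-sided comparisons. Genes counted as called when the p adjusted by Benjamini-Hochberg across all genes tested was under 0.05. Steps were tested on simulated data.

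Read totals, 14200000 to 39300000, were recovered from RPKM times RefSeq length (GRCm38.p6). Lengths, hosts and sequences came from RefSeq and GENCODE M21 on GRCm38. The files use mm9, so no coordinates are given. Python 3.11.15, numpy 2.4.6, pandas 2.3.3, matplotlib 3.10.9 and Biopython 1.88 were used. The labels state 8 injected mice and 12 mice per diet against 6 libraries per group. Replicate numbers were checked as pairs. The 36 same-number pairs had correlations of deviations from -0.436 to 0.478, and the 180 other pairs from -0.761 to 0.716. No pairing was used, although the highest summed RPKM of these genes was in replicate 5 of every group.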

Additional observations from a re-analysis of the deposited data

Results flagged for a closer look

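Libraries far from the other 5 of their group were sought with Dixon's test in each group for the genes with the highest means and the smallest p-values. It marked 5 of 64 groups, and chance marks about 1 in 20. Snora23 was at 88.675 RPKM in normal vehicle replicate 2, where the other 5 libraries lay between 214 and 287 RPKM; this library was also among the lowest for 10 of the 12 highest genes. Snord123 was at 8.09 RPKM in rescue 1,25D replicate 5, against 4.28 to 5.27 RPKM in the other 5. Snord35a was at 22.137 RPKM in normal 1,25D replicate 3, against 6.99 to 9.99 RPKM, and without it the log2 fold change on the normal diet stayed above 0. Snord116l1 was at 3.051 RPKM in normal 1,25D replicate 2, against 0 to 1.13 RPKM, and at 5.96 RPKM in rescue vehicle replicate 1, against 0 to 1.83 RPKM; it rests on at most 11 reads in a library, and Snord116l2 repeats its values.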

How the results depend on the processing

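In all 7 comparisons 0 small nucleolar RNA genes were called with the values as deposited. The alternatives changed the pseudocount, the filter, the scaling, the library weights, the samples in the fit, the rows per symbol and the threshold, added the replicate number as a block, and left out normal vehicle replicate 6 with rescue 1,25D replicate 4. The count stayed at 0 under all of them except limma's library weights for 1,25D over both diets, which called 1 gene, Snord123 (log2 fold change -0.43, adjusted p = 0.0385). Centring the genes on their own median per library, chosen after seeing the data, also gave 0. Leaving out each of the 24 libraries gave 0 to 0 calls in every comparison. With the replicate block the count was 0 in all 7 comparisons. Of the same-number pairs 13 of 36 correlated above 0.1 (median 0.00229), beside 60 of 180 other pairs (median 0.02). The numbers were therefore not taken as pairs, although replicate 5 had the highest summed RPKM of the genes in 4 of 4 groups. No followed fold change reversed. Snord116l1 did not pass the filter at 5 RPKM, so it has no value there. A fit of only the 2 groups compared could not be made where 4 groups enter. Between diets the median of all genes, 0.10 under vehicle and 0.12 after 1,25D, went to 0.00 and 0.01 after quantile normalization. Reads limit the rest: 17 genes had a median under 10 per library, and the genes of 80 RefSeq bases or less cannot be assessed.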
